A study of Ictidomys tridecemlineatus with 31 samples.

Results

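The transcripts of 10 antioxidant genes, several of them textbook targets of the transcription factor NRF2, were followed in the kidney of the 13-lined ground squirrel (Ictidomys tridecemlineatus), a hibernating rodent, across 6 states of its year. The genes were Sod1, Sod2, Cat, Gpx1, Gpx3, Gpx4, Prdx1, Gclc, Hmox1 and Nqo1. They were chosen by name as a functional family, not by their values, though with earlier results of these data known. All 10 were found in the table, each in 1 row, among 12863 genes in all.

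The kidneys came from 31 animals. The active season was represented by summer active animals (SA, n = 5), which were homeothermic and fattening, and by spring dark animals (SpD, n = 5), which were homeothermic after their last torpor bout but still housed in the dark hibernaculum. The other 4 states belong to the torpor-arousal cycle of winter. They were interbout aroused (IBA, n = 5), warm for a few hours after rewarming; entrance (Ent, n = 5), with body temperature falling again; EAr (n = 5), arousing early with the body still cold; and LAr (n = 6), later in the same rewarming. Animals were assigned to a state from implanted temperature recorders, and the labels name no drug or genetic change in any group. They were perfused with cold buffer before the kidney was taken. There were 17 females and 14 males, and ages are not given in the labels. Animals are named here by library (K1 and so on), and each library is 1 animal.

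Reactive oxygen species are handled in steps. Superoxide dismutases convert superoxide to hydrogen peroxide, and catalase, glutathione peroxidases and peroxiredoxins then reduce the peroxide. The glutathione used by the peroxidases is made by a pathway whose first and rate-limiting enzyme has Gclc as its catalytic subunit. NRF2, encoded by Nfe2l2, is held low by KEAP1 and, when released, activates genes such as Gclc, Nqo1, Hmox1 and Prdx1. Rewarming from torpor brings a steep rise in blood flow and oxygen use, which is why these enzymes are often examined in hibernators. The kidney is also the main source of the secreted peroxidase encoded by Gpx3, which is made in the proximal tubule.

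Each value is a batch-corrected regularized log (rlog) value, on the log2 scale, so that a difference of 1 is a 2-fold difference in normalized transcript abundance. Values in the table ran from 4.11 to 19.79, and the median of each animal lay between 9.74 and 9.88. The sequencing depth is unknown, so errors here reflect only how animals of a state differ. Libraries were made with the TruSeq kit in 9 animals (3 each of IBA, Ent and SpD) and with the Nugen kit in 22. SA, EAr and LAr were Nugen only. The values had been adjusted so that the kits have the same mean for every gene, although the kits hold different states. Group means are therefore given as they stand in the table, and differences between states come from a limma model with terms for state, sex and kit, so the fitted difference need not equal the difference of the means. K113 (LAr) and K137 (SA), which the study set aside, are shown apart, and the model holds the other 29 animals. A gene passed the test at q under 0.05, where q is the Benjamini-Hochberg adjusted p over all 12863 genes. The 12 proximal tubule markers checked (among them Lrp2, Cubn and Slc34a1) were all present, as were those of the thick ascending limb and collecting duct, so the tissue is kidney by its markers. In whole tissue, fewer cells of a type and less RNA per cell cannot be told apart.

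Antioxidant transcripts were lower in IBA than in SA for 6 of the 10 genes, beside 12.5% of all genes. Between IBA and Ent, Gclc alone fell, a count of 1 of 10 beside 7.61% of all genes. Over the 6 states together, 6 of 10 genes passed the moderated F test of limma, beside 46.1% of all genes. They were Gclc (q = 0.000445), Sod2 (q = 0.00137), Gpx3 (q = 0.0141), Cat (q = 0.0176), Nqo1 (q = 0.0214) and Prdx1 (q = 0.0260). The Prdx1 call was lost without K140, and the Nqo1 call without K138 or K140. Gpx1 (q = 0.0684), Sod1 (q = 0.126), Hmox1 (q = 0.229) and Gpx4 (q = 0.444) did not pass. At the q under 0.001 used by the study, only Gclc passed, beside 9.34% of all genes.

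**Figure D1:**
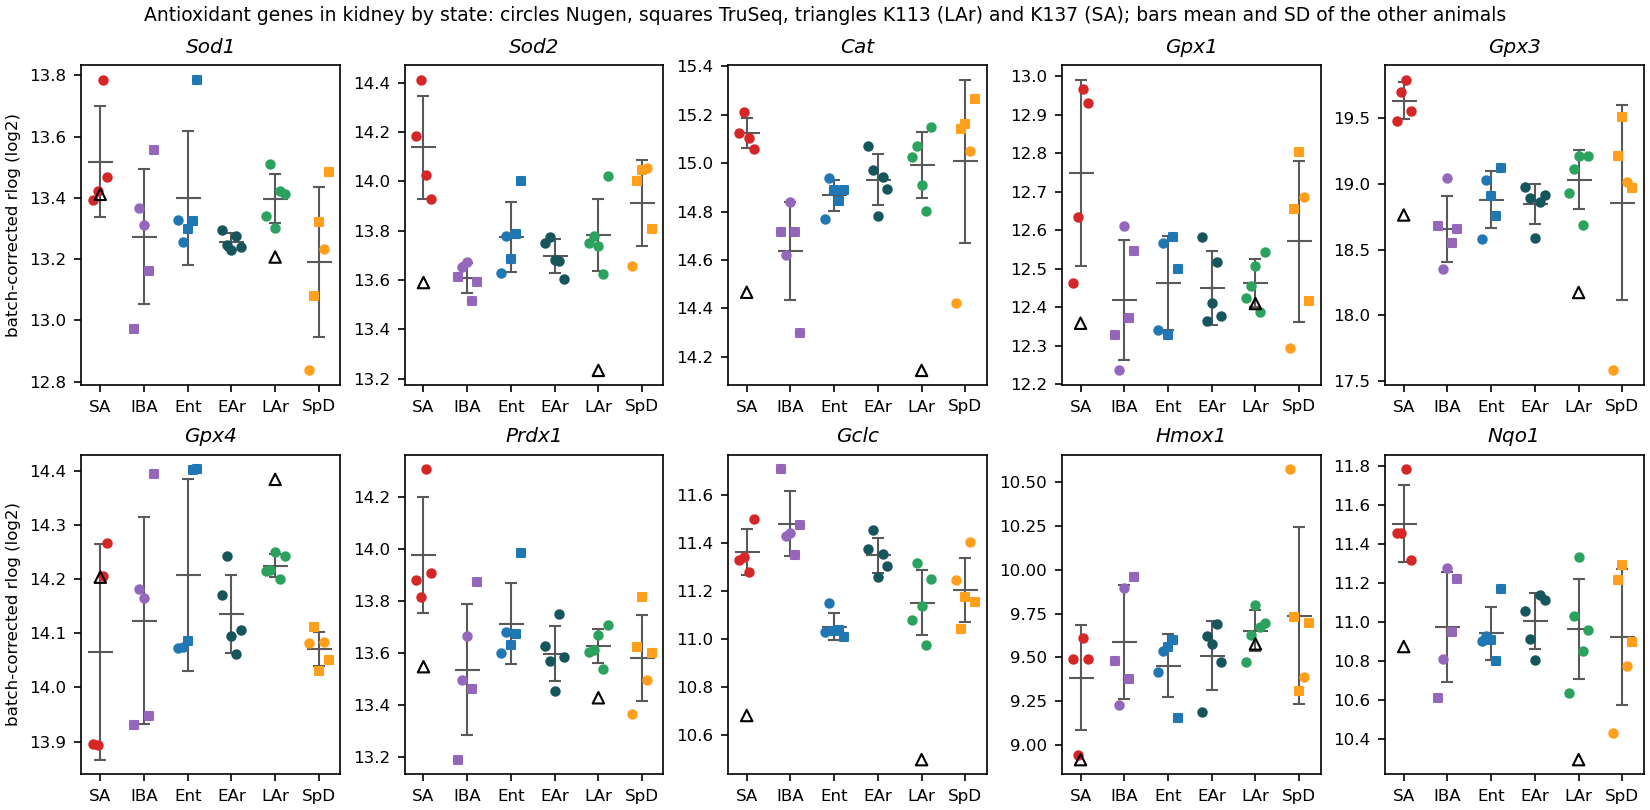
Batch-corrected rlog values (log2 scale, vertical axes) of the 10 genes in each animal by state, with the mean and SD of the 29 animals as bars and K113 and K137 as open triangles. Gpx3 in the 4 SA animals (19.48 to 19.79) sits above every LAr, EAr, Ent and IBA animal, and Gclc in Ent (11.01 to 11.15) sits below every IBA and EAr animal.

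Sod2 encodes the manganese superoxide dismutase of the mitochondrial matrix. Its values were 14.18, 14.41, 14.03 and 13.93 in the SA animals K138, K139, K140 and K141, a mean of 14.14 ± 0.21 (SD, n = 4). In IBA they were 13.61, 13.65, 13.67, 13.52 and 13.59 in K1, K104, K171, K4 and K7, a mean of 13.61 ± 0.06 (SD, n = 5). No IBA animal reached the lowest SA animal, and the IBA animals lay closer together than the animals of any other state. The other states were between, with means of 13.78 ± 0.14 in Ent, 13.70 ± 0.07 in EAr, 13.78 ± 0.15 in LAr and 13.91 ± 0.17 in SpD (SD, n = 5 each). In the model, Sod2 was 0.57 lower in IBA than in SA on the log2 scale (log2 difference -0.57, SE 0.10, q = 0.000463), a 1.49-fold decrease. It was the only one of the 10 genes to pass q under 0.001 there, beside 3.15% of all genes. Sod2 rose again in SpD relative to IBA (log2 difference 0.30, SE 0.09, q = 0.0249), a difference of the table's means of 0.377 within the TruSeq animals and 0.192 within the Nugen animals. That call was lost without K1, without K3, without K4, without K6 and without K84.

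Sod1 encodes the cytosolic copper-zinc enzyme. Its means ran from 13.52 ± 0.18 in SA (n = 4) to 13.19 ± 0.25 in SpD (SD, n = 5), and neighbouring states overlapped at every place in that order. The IBA values were 12.97, 13.37, 13.31, 13.16 and 13.56, and the SA values 13.39, 13.42, 13.79 and 13.47, so both groups overlapped. The fitted IBA minus SA difference of -0.31 (SE 0.13) did not pass (q = 0.0956). Whether Sod1 and Sod2 differed in their response was not tested.

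Cat encodes catalase, the peroxisomal enzyme that breaks down hydrogen peroxide. The SA animals had 15.13, 15.21, 15.10 and 15.06 (mean 15.12 ± 0.06, SD, n = 4), and the IBA animals K1, K104, K171, K4 and K7 had 14.71, 14.62, 14.84, 14.72 and 14.30 (mean 14.64 ± 0.20, SD, n = 5). All IBA animals were below all SA animals. Cat had its lowest mean in IBA, and the means were 14.87 ± 0.06 in Ent, 14.93 ± 0.10 in EAr and 14.99 ± 0.14 in LAr (SD, n = 5 each). None of Ent minus IBA (q = 0.174), EAr minus Ent (q = 0.766) and LAr minus EAr (q = 0.962) passed for Cat, and neighbouring states overlapped. The fit gave a decrease in IBA of 1.48-fold relative to SA (log2 difference -0.57, SE 0.13, q = 0.00371), and of 1.34-fold relative to LAr (log2 difference -0.43, SE 0.13, q = 0.0216). The latter call was lost without K104 or without K116. SpD exceeded IBA by 0.37 (SE 0.11, q = 0.0325), and here the kits differed: the means differed by 0.613 within the TruSeq animals and by 0.0067 within the Nugen animals, where K130 is 1 of 2 SpD animals. The call was lost without each of K1, K104, K3, K6, K7, K84 and K9.

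The SpD mean of Cat covers one animal far from the rest. Values were 15.14, 15.16, 15.05 and 15.27 in K3, K6, K84 and K9 and 14.42 in K130.

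Gpx3, the secreted plasma glutathione peroxidase, had values from 17.58 to 19.79, which reach the top of the table's range. The SA animals had 19.48, 19.70, 19.79 and 19.56, a mean of 19.63 ± 0.14 (SD, n = 4). Values in IBA were 18.68, 18.35, 19.05, 18.55 and 18.66, a mean of 18.66 ± 0.25 (SD, n = 5). The means of LAr (19.03 ± 0.23), Ent (18.88 ± 0.22), SpD (18.86 ± 0.74) and EAr (18.85 ± 0.15) lay close together between them. SA was separated from the next state, LAr, by 0.60 with no overlap, whereas every other pair of neighbours in the order overlapped. Gpx3 fell 2.31-fold from SA to IBA in the model (log2 difference -1.21, SE 0.26, q = 0.00237), the largest fitted difference of the 10 genes in that comparison.

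Gpx3 was also higher in SA than in SpD (log2 difference 1.01, SE 0.26, q = 0.0202), with the animals overlapping. The SpD values were 19.21, 19.51, 19.02 and 18.97 in K3, K6, K84 and K9 but 17.58 in K130. Without K130 the difference fell to 0.55 and did not pass (q = 0.160), and the call was also lost without the SA animal K140.

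Gpx1 and Gpx4 are the other glutathione peroxidases of the family. Gpx1, the abundant cytosolic form, had SA values of 12.46, 12.63, 12.97 and 12.93 and IBA values of 12.33, 12.24, 12.61, 12.37 and 12.55, which overlapped. It was 1.29-fold lower in IBA (log2 difference -0.37, SE 0.11, q = 0.0226). The call was lost without K104, without K140, without K141 and with Nugen libraries only. Gpx4, which reduces lipid hydroperoxides in membranes and guards against ferroptosis, had means between 14.07 ± 0.20 in SA and 14.22 ± 0.02 in LAr (SD), and no comparison passed. Its IBA minus SA difference was 0.02 (SE 0.11, q = 0.889). Both Gpx4 and Gpx1 are selenoproteins, as is Gpx3.

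Prdx1 encodes a cytosolic peroxiredoxin that passes electrons from thioredoxin to peroxide. The SA values were 13.88, 13.82, 14.31 and 13.91, with K140 highest, and the IBA values were 13.19, 13.49, 13.66, 13.46 and 13.87. The groups overlapped by K7 alone, which exceeded K139. Prdx1 fell 1.41-fold in IBA relative to SA (log2 difference -0.50, SE 0.13, q = 0.00745). It was 1.37-fold higher in SA than in SpD (log2 difference 0.46, SE 0.13, q = 0.0276), a call lost without K130, without K140 and without K84.

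Nqo1 encodes a quinone reductase that is among the most used readouts of NRF2 activity. Its SA values were 11.46, 11.46, 11.79 and 11.32 (mean 11.51 ± 0.20, SD, n = 4). The means of the other states all lay between 10.92 ± 0.35 in SpD and 11.01 ± 0.14 in EAr (SD, n = 5 each). SA was separated from EAr, the next in order of means, by 0.50 with no overlap. It did overlap LAr, where K112 (11.34) exceeded the SA animal K141 (11.32). IBA values were 10.61, 10.81, 11.28, 10.95 and 11.22, all below SA. Nqo1 fell 1.55-fold from SA to IBA (log2 difference -0.63, SE 0.17, q = 0.0116) and was 1.60-fold higher in SA than in SpD (log2 difference 0.68, SE 0.17, q = 0.0178). The latter was lost without K130 and without K140, and the former with Nugen libraries only.

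Hmox1, the inducible heme oxygenase that degrades heme to biliverdin, iron and carbon monoxide, did not pass in any comparison of states. Its means ran from 9.38 ± 0.30 in SA (n = 4) to 9.74 ± 0.50 in SpD (SD, n = 5), and neighbours overlapped throughout. The SpD values were 9.73, 9.31, 9.39 and 9.70 in K3, K6, K84 and K9 and 10.58 in K130, the highest of the 31 animals. Among marker means, that of the 4 macrophage markers, a cell type known for high heme oxygenase, was 8.16 in K130 and from 8.11 to 8.76 over the SpD animals. K130 was the highest SpD animal in the marker means of the inner medulla (13.06), thick ascending limb (14.30), collecting duct principal cell (12.86) and endothelium (11.69), and their part in its Hmox1 value was not tested. IBA minus SA was 0.33 (SE 0.19, q = 0.218).

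Gclc followed another course. Its values in IBA were 11.71, 11.43, 11.44, 11.35 and 11.47 in K1, K104, K171, K4 and K7, the highest mean of the states (11.48 ± 0.14, SD, n = 5). In Ent they were 11.03, 11.15, 11.03, 11.03 and 11.01 in K155, K167, K2, K5 and K8, the lowest mean (11.05 ± 0.06, SD, n = 5). The ranges were apart, with every Ent animal below every IBA animal, as in 4.51% of all genes.

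Gclc fell 1.35-fold from IBA to Ent (log2 difference -0.43, SE 0.07, q = 0.000553). It also passed q under 0.001, as did 0.746% of all genes, and the difference of the means was -0.485 within the TruSeq animals and -0.344 within the Nugen animals. In EAr, at the other end of the torpor bout, the values were 11.37, 11.45, 11.25, 11.35 and 11.30, all above those of Ent, as in 0.645% of all genes. The EAr minus Ent difference of 0.27 (SE 0.08) did not pass (q = 0.296).

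In LAr, Gclc values were 11.08, 11.31, 11.14, 10.97 and 11.25 in K109, K111, K112, K115 and K116. Gclc was higher in IBA than in LAr (log2 difference 0.36, SE 0.08, q = 0.00334), with no overlap, as in 7.62% of all genes, and lower in SpD than in IBA (log2 difference -0.28, SE 0.07, q = 0.0117). The SpD minus IBA difference of the means was -0.387 within the TruSeq animals and -0.110 within the Nugen animals. SA and IBA did not differ by the test (log2 difference 0.15, SE 0.08, q = 0.204), and the SA values of 11.33, 11.34, 11.28 and 11.50 overlapped those of IBA.

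Set side by side, the comparisons gave the following counts. In IBA minus SA, 6 of 10 genes passed and all were lower in IBA (Gpx3, Nqo1, Sod2, Cat, Prdx1 and Gpx1), beside 22.9% of all genes passing and 12.5% passing as lower. In 4 of 10 genes (Sod2, Cat, Gpx3 and Nqo1) the IBA animals were all below the SA animals, which 9.59% of all genes were. The median fitted difference was -0.44 over the 10 genes and 0.03 over all genes. In SA minus SpD, 3 of 10 passed, all higher in SA (Gpx3, Prdx1 and Nqo1), beside 10.5% of all genes and 5.47% higher. In Prdx1 and Nqo1 the SA animals were all above the SpD animals, as in 4.04% of all genes, but narrowly. The lowest SA and highest SpD values were 13.815 and 13.814 in Prdx1, and 11.32 and 11.29 in Nqo1. The comparisons share SA or IBA animals and are not independent.

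Between neighbouring states of winter and on to spring, the counts lay near the shares over all genes, except that SpD minus IBA had 3 of 10. In Ent minus IBA 1 of 10 passed (Gclc, lower), beside 13.1% of all genes and 7.61% lower. In EAr minus Ent, across the torpor bout, 0 of 10 passed by limma, beside 0.257% of all genes. Gclc alone of the 10 had an unadjusted p under 0.05, beside 921 of all 12863 genes. In LAr minus EAr, 0 of 10 passed by limma, beside 0.575% of all genes. Again Gclc alone had an unadjusted p under 0.05 (log2 difference -0.21, q = 0.335), beside 1071 of all 12863 genes. The LAr animals were all above the EAr animals in Sod1, as in 3.74% of all genes, with a fitted difference of 0.14 (q = 0.814). In IBA minus LAr 2 of 10 passed (Gclc higher and Cat lower), beside 18.0% of all genes, 9.93% higher and 8.03% lower. In SpD minus IBA 3 of 10 passed (Cat and Sod2 higher, Gclc lower), beside 11.9% of all genes, 6.48% higher and 5.42% lower.

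Taking the seasons as a whole, with the 4 hibernation states against SA and SpD, 5 of 10 genes were lower in hibernation and none was higher by limma, beside 33.4% of all genes passing and 16.8% passing as lower. Sod2 had the lowest q (log2 difference -0.31, SE 0.06, q = 0.000186) and passed q under 0.001, as did 9.73% of all genes. Gpx1 (log2 difference -0.21, q = 0.0112), Cat (-0.21, q = 0.0273), Gpx3 (-0.39, q = 0.0377) and Nqo1 (-0.24, q = 0.0472) followed. For Gpx3 and Nqo1 only SA stood above the hibernation states by its mean. The Nqo1 mean in SpD (10.92) was below all 4 hibernation means (10.94 to 11.01). The Gpx3 mean in SpD (18.86) lay within the hibernation means (18.66 to 19.03). The Sod2 and Gpx1 calls were kept when any single animal was left out, the Cat call in 25 of 29 cases, the Gpx3 call in 14 and the Nqo1 call in 9. Markers of several cell types also passed as lower in hibernation and none as higher: 4 of 12 of the proximal tubule, 3 of 5 of the thick ascending limb, 3 of 5 of collecting duct principal cells, 2 of 5 of intercalated cells and 3 of 4 of the endothelium. Their part in the season differences was not tested. No gene differed between females and males at q under 0.05 by limma (0 of 10, beside 0.218% of all genes). Hmox1 alone had an unadjusted p under 0.05, beside 824 of all 12863 genes, being lower in females (log2 difference -0.26, SE 0.10, q = 0.604). The sex by season interaction passed for 0 of 10 genes by limma and for 0.0% of all genes. At an unadjusted p under 0.05 there were 0 of 10, beside 595 of all 12863 genes.

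**Figure D2:**
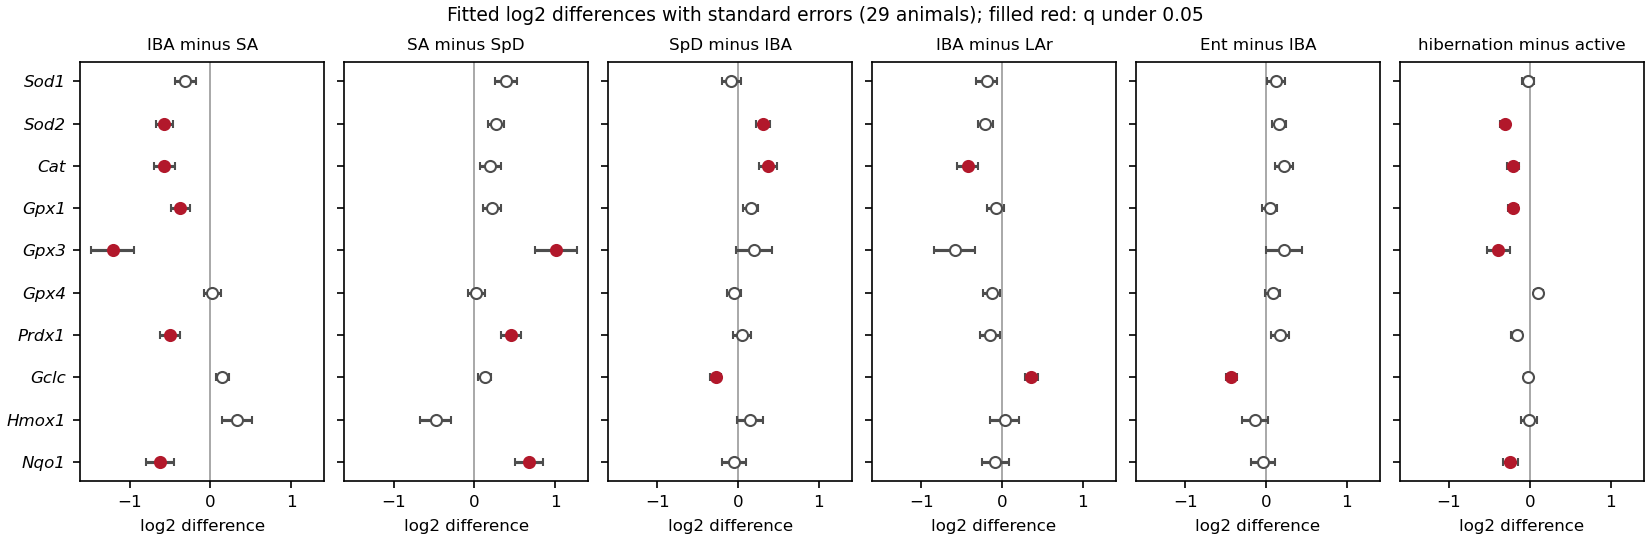
Fitted log2 differences (horizontal axes) with standard errors for the 10 genes in 6 comparisons over 29 animals, filled red where q is under 0.05. IBA minus SA has 6 filled points, all to the left of 0 with Gpx3 at -1.21, and Gclc is the only filled point in Ent minus IBA, at -0.43.

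Proximal tubule markers were also lower in IBA than in SA. The mean level of the 12 markers was 15.06 in SA (14.92 to 15.24 over animals) and 14.25 in IBA (13.80 to 14.59), with no overlap. Of the 12, 8 were lower in IBA than in SA at q under 0.05 and none was higher, with a median fitted difference of -0.89. The means in Ent, EAr, LAr and SpD were 14.47, 14.69, 14.56 and 14.52. The 3 distal convoluted tubule markers found also had a lower mean in IBA (11.19, 10.62 to 11.70) than in SA (11.87, 11.64 to 12.08), with 2 of 3 passing. Of the 4 podocyte markers, 2 passed as lower in IBA (mean 11.49, against 12.16 in SA).

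With the proximal tubule marker mean added to the model as a covariate, 1 of the 10 genes passed in IBA minus SA instead of 6. Sod2 remained (log2 difference -0.50, q = 0.011), and Gpx3 (-0.55, q = 0.075), Prdx1 (-0.45, q = 0.053), Cat (-0.18, q = 0.20), Nqo1 (-0.37, q = 0.21) and Gpx1 (-0.22, q = 0.26) did not pass. All 6 kept their sign. Over the 6 states, Gclc, Sod2 and Cat passed with the covariate. In a fit of the SA and IBA animals alone, 0 of the 10 passed by limma, and 3 had an unadjusted p under 0.05. There the kit term took up the TruSeq animals, all of them IBA. Apart from the sex term, the difference then rested on the 2 Nugen IBA animals, K104 and K171. Without K104 and K130, the animals of lowest marker mean in IBA and SpD, 4 of 10 passed in IBA minus SA (Sod2, Cat, Gpx3 and Prdx1). The part of tubule content in the result was not tested beyond these values. Of the 8 neutrophil and lymphocyte markers listed, only Cd79a was found, with a mean of 10.17 in SA and 9.38 in IBA.

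**Figure D3:**
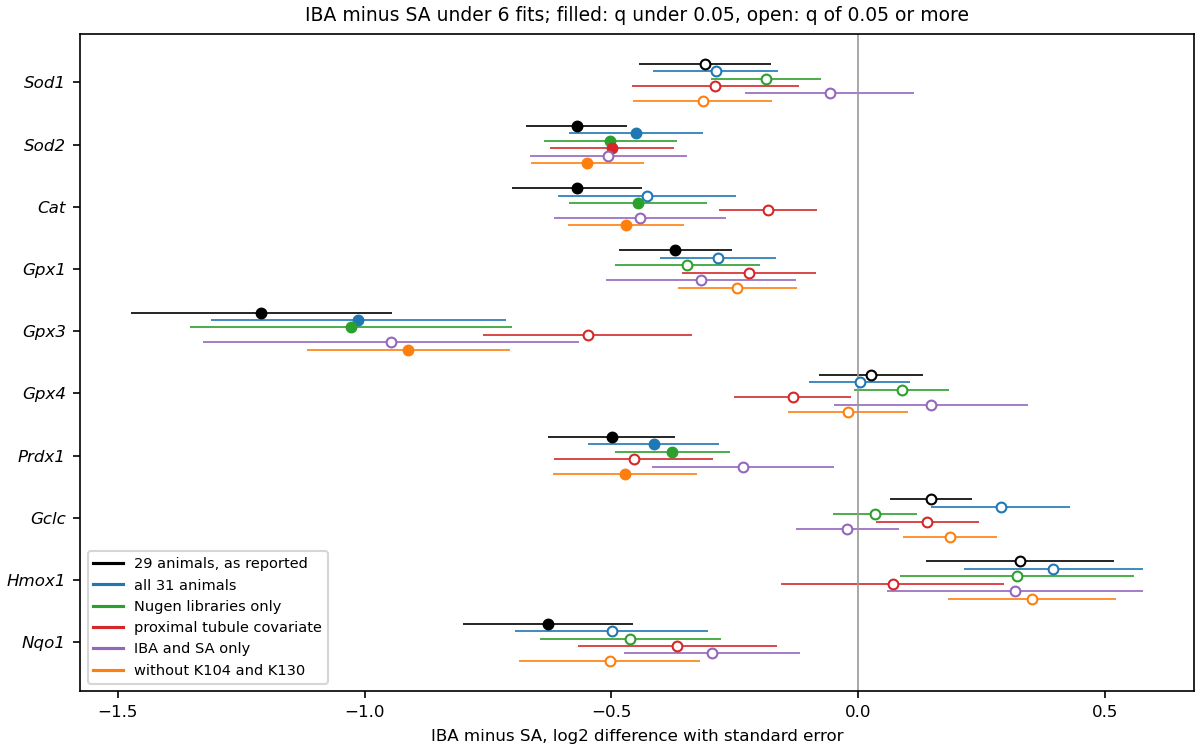
IBA minus SA log2 differences with standard errors (horizontal axis) for the 10 genes under 6 fits, in colors, filled where q is under 0.05. Gpx3 moves from -1.21 in the model of 29 animals to -0.55 with the proximal tubule covariate, while Sod2 moves from -0.57 to -0.50 and stays filled in 5 of the 6 fits.

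K113 and K137 stood apart from their groups over the whole table as well as in these genes. K113 lay below the other 5 LAr animals in 7 of the 10 genes, above them in 1 (Gpx4, 14.38 against 14.20 to 14.25) and within their range in 2. In Cat it had 14.14 against 14.80 to 15.15, in Gpx3 18.17 against 18.69 to 19.22, and in Gclc 10.50 against 10.97 to 11.31. K137 lay below the other 4 SA animals in 8 genes and within them in 2, with 18.76 against 19.48 to 19.79 in Gpx3 and 10.68 against 11.28 to 11.50 in Gclc. Over all genes, 35.6% lay above and 37.2% below the other animals for K113, and 33.9% above and 29.5% below for K137.

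K130, an SpD animal kept in the model, was below the other 4 SpD animals in 7 genes, above them in 1 (Hmox1) and within in 2, against 28.4% of all genes below and 32.7% above. K130 differed from K113 and K137 in Gclc, where its 11.24 fell inside the range of the others (11.04 to 11.40). The proximal tubule marker mean was 13.33 in K130, 13.63 in K113 and 14.03 in K137, each under the lowest of the other animals of its group. The mean of 5 markers of the inner medulla and thin limb went the other way. It was 13.30 in K113, against 10.64 to 10.97 over the other LAr animals, 13.87 in K137, against 10.75 to 12.08 over the other SA animals, and 13.06 in K130, the highest of SpD. K104, with the lowest proximal tubule mean of IBA, had the highest medullary mean of that state (12.96). The part of these shifts in the gene values was not tested. With all 31 animals in the model, 3 of 10 genes passed in IBA minus SA (Gpx3, Prdx1 and Sod2) and 1 of 10 over the 6 states (Gclc).

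**Figure D4:**
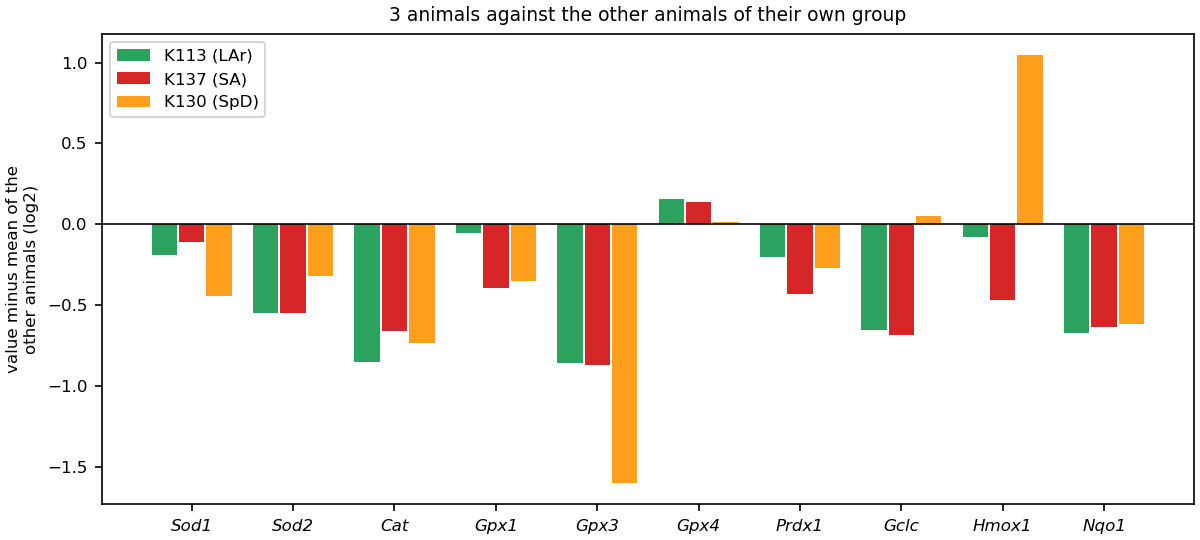
Value in K113, K137 and K130 minus the mean of the other animals of the same group (vertical axis, log2) for each gene. Cat and Gpx3 are below 0 in all 3 animals, with Gpx3 in K130 at -1.60, and Hmox1 is raised only in K130, at 1.05.

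The wider pathway was described with 7 lists drawn up from general knowledge. Of 16 regulators of NRF2 signaling, 15 were found and 5 passed over the states, under the 46.1% of all genes that did. Nfe2l2 itself did not pass (q = 0.088), with means from 12.16 ± 0.08 in LAr to 12.39 ± 0.06 in SA (SD), and its IBA minus SA difference was -0.09 (q = 0.48). Neither Keap1, its inhibitor (q = 0.46), nor Bach1, the repressor of Hmox1 (q = 0.14), passed. Sqstm1, which encodes p62, an autophagy receptor that binds KEAP1, was highest in IBA (13.88 ± 0.15, SD, n = 5, against 13.34 ± 0.17 in SA, n = 4). It rose in IBA relative to SA (log2 difference 0.60, SE 0.11, q = 0.00053) and to LAr (0.51, q = 0.0022), and fell from IBA to Ent (-0.62, q = 0.00028). Like Gclc, it passed as higher in IBA than in LAr and as lower in Ent and in SpD than in IBA.

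Mafg and Mafk encode small MAF proteins, the DNA-binding partners of NRF2. Mafg rose from EAr to LAr (log2 difference 0.67, SE 0.14, q = 0.014) and was lower in IBA than in LAr (-0.65, q = 0.0054). Mafk fell from IBA to Ent (-0.41, SE 0.11, q = 0.020). In IBA minus SA, 2 regulators of the 15 were higher and 1 was lower, near the 22.9% of all genes that passed.

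Of 12 further superoxide and peroxide enzymes, 7 were found and 3 passed over the states, near the 46.1% of all genes. Prdx3, the mitochondrial peroxiredoxin, was lower in IBA than in SA (log2 difference -0.57, SE 0.11, q = 0.00059), as was Prdx6 (-0.53, SE 0.13, q = 0.0041). Prdx5 rose from IBA to SpD (0.45, SE 0.15, q = 0.047). Of 17 genes of glutathione supply and recycling, 14 were found and 9 passed over the states, beside 46.1% of all genes. In IBA minus SA, 6 were lower and none was higher, beside 12.5% and 10.4% of all genes. Among them, Oplah (-0.32, q = 0.036) and Glrx (-0.47, q = 0.049) were lower in IBA, and Gss, which encodes glutathione synthetase, the step after Gclc, was lower in IBA than in LAr (-0.35, q = 0.0070), where Gclc was higher.

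In the thioredoxin and methionine sulfoxide repair list, 14 of 15 genes were found and 9 passed over the states, beside 46.1% of all genes. In IBA minus SA, 2 were higher and 4 lower, beside 10.4% and 12.5% of all genes. Srxn1, the sulfiredoxin that restores overoxidized peroxiredoxins and a NRF2 target, was higher in hibernation than in the active season (log2 difference 0.43, SE 0.06, q = 1.3e-05). Its means were 11.95 ± 0.28 in IBA and 11.47 ± 0.16 in SA (SD). Msra, a methionine sulfoxide reductase, was lower in hibernation (-0.41, SE 0.07, q = 7.1e-05) and lower in IBA than in SA (-0.74, q = 0.00023). Txnrd3 fell from IBA to Ent (-0.26, q = 0.014).

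Of 30 other NRF2 targets, mostly detoxification enzymes, 25 were found and 17 passed over the states, beside 46.1% of all genes. In IBA minus SA, 13 were lower and 1 was higher, beside 12.5% and 10.4% of all genes. The median difference was -0.42. Gstm4 (log2 difference -1.66, SE 0.21, q = 2e-05) and Cbr1 (-1.32, SE 0.23, q = 0.00039), a carbonyl reductase, were lower in IBA, as was Osgin1 (-1.17, SE 0.23, q = 0.0010). Gstm4 belongs to a family of near-identical copies and its row is uncertain. Many detoxification enzymes are also abundant in the proximal tubule.

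Heme and iron handling was represented by 11 of 13 genes, of which 4 passed over the states, under the share of all genes (46.1%), and 4 were lower in IBA than in SA, where 12.5% of all genes were. Fech, the last enzyme of heme synthesis, fell in IBA relative to SA (log2 difference -0.59, SE 0.09, q = 0.00011). Slc40a1, the iron exporter ferroportin, was higher in IBA than in LAr (0.90, SE 0.15, q = 0.00028) and fell from IBA to Ent (-0.63, SE 0.13, q = 0.0036). Blvra, which reduces the biliverdin made by heme oxygenase, was lower in IBA than in LAr (-0.49, q = 0.0053). Of 19 genes of selenoprotein supply, 18 were found and 7 passed over the states, under the 46.1% of all genes. In IBA minus SA 1 was higher and 4 were lower, near the 22.9% of all genes that passed. Trnau1ap was higher in hibernation (0.34, q = 0.00014), and Selenbp1 (-0.43, q = 0.00094) and Secisbp2 (-0.12, q = 0.0059) were lower.

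**Figure D5:**
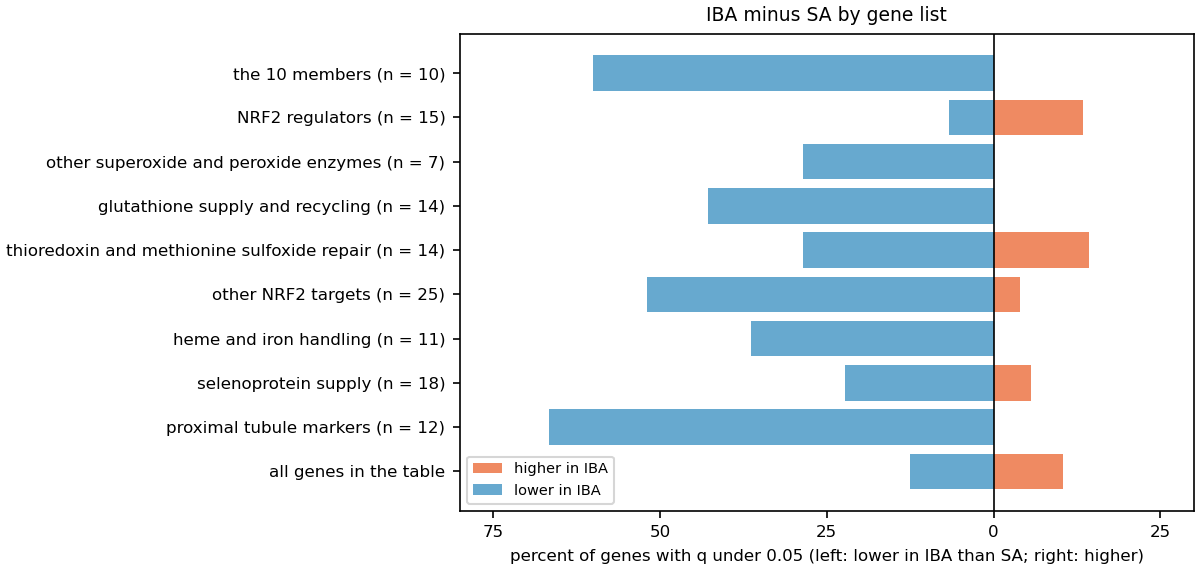
Percent of genes in each list with q under 0.05 in IBA minus SA (horizontal axis), lower to the left and higher to the right, with the number of genes found. The 10 antioxidant genes have 6 lower and none higher, the proximal tubule markers 8 of 12 lower, and all genes measured are 12.5% lower and 10.4% higher.

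The genes most like each of the 6 that passed over the states were found by Pearson's r across the 29 animals, after the kit and sex terms were removed, as a description that carries the differences between states and between animals alike. For Gpx3 they were Akr7a2 (r = 0.97), Akr1a1 and Pgrmc1 (both r = 0.95). For Cat they were Sfxn1, Gcdh (both r = 0.94) and Slc5a11 (r = 0.93), and for Sod2 they were Gk, Cmbl and Clybl (all r = 0.90). Prdx1 was most like Dera (r = 0.90), Hsbp1l1 (r = 0.90) and Mgst1 (r = 0.89). Nqo1 was most like a row named FTH1 (r = 0.85), Prdx1 (r = 0.85) and Gpx3 (r = 0.84). Gclc had no gene as close, with Elavl1 at r = 0.82, Morc4 at r = 0.78 and Cstf2 at r = 0.77.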

How the data were processed

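Per the study's methods, the authors prepared polyadenylated RNA libraries with either of 2 kits, used cutadapt for adapter trimming and HISAT2 to discard mitochondrial reads, and ran Salmon against HiC_Itri_2 transcripts. The authors deposited rlog values (log2 scale) made with DESeq2, from which a batch effect had been removed with limma. Counts were not used here, so the count test of the study was replaced by limma 3.58.1 in R 4.3.3 on the deposited log2 values, with state, sex and kit as terms, an intensity trend and Benjamini-Hochberg adjustment over 12863 genes in each comparison. The earlier batch removal used 1 degree of freedom, which the kit term of the model counts and the fit without a kit term does not. The model was also run on simulated data, independent normal noise with shifts in IBA only. These data held no kit effect and no batch removal, so the run cannot speak to either. Summaries used Python 3.11.15, pandas 2.3.3 and matplotlib 3.10.9.

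The members, lists and tests were chosen with earlier results of these data known. Genes named from a list are the 3 of lowest q over the states among those that passed, with Nfe2l2, Keap1 and Bach1 always named, and genes most like a member are the 3 of highest r. All 10 symbols matched RefSeq (assembly mIctTri1.hap1, not the assembly of the study), so no positions are given. Alternatives were all 31 animals, no kit term, no sex term, no trend, a robust prior, animal weights, Nugen libraries only, a mean filter at 8, median centering, q under 0.001, a proximal tubule covariate, fits of only the groups compared and each animal left out. Some marker lists are not reported here.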

Additional observations from a re-analysis of the deposited data

Results flagged for a closer look

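In 60 sets of 1 gene in 1 group, 5 had an animal flagged by Dixon's test. Its gap to its nearest neighbour, divided by the range of the group, exceeded the 95% critical value. Chance gives this in about 1 of 20 groups. In Ent, K8 had 13.79 for Sod1 (others 13.26 to 13.33) and 13.98 for Prdx1 (others 13.60 to 13.68). Also in Ent, K167 had 11.15 for Gclc (others 11.01 to 11.03). In SpD, K130 had 14.42 for Cat (others 15.05 to 15.27) and 17.58 for Gpx3 (others 18.97 to 19.51).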

How the results depend on the processing

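Of 26 calls of a gene in a comparison, 0 changed direction, though calls over the 6 states have no direction to change. Of the 26, 14 were kept without any single animal. In every alternative 2 were kept (Sod2 in hibernation minus active, and Gclc over the states). The number of the 10 genes that passed over the 6 states was 6, and it was 1 at q under 0.001, 1 with all 31 animals and 3 with the proximal tubule covariate. In IBA minus SA it was 6, and became 1 at q under 0.001, 3 with all 31 animals, 1 with the covariate and 0 in a fit of only these groups. In SA minus SpD it was 3, and became 0 at q under 0.001, 0 with all 31 animals, 0 with animal weights, 5 with Nugen libraries only, 0 with the covariate, 1 in a fit of only these groups, and 0 without K104 and K130 together, an alternative chosen after seeing the data. With Nugen libraries only, the SpD animals were K84 and K130 alone. In that fit, the Nqo1 and Gpx1 calls of IBA minus SA were lost. In Ent minus IBA it was 1, and became 0 with Nugen libraries only and 0 in a fit of only these groups. In LAr minus EAr it was 0, and became 1 with animal weights. In IBA minus LAr it was 2, and became 0 at q under 0.001, 1 with all 31 animals, 0 with Nugen libraries only, 1 with the covariate, 0 in a fit of only these groups and 1 without K104 and K130. In SpD minus IBA it was 3, and became 0 at q under 0.001, 0 with all 31 animals, 0 with Nugen libraries only and 0 in a fit of only these groups. In hibernation minus active it was 5, and became 1 at q under 0.001, 2 with all 31 animals, 1 with Nugen libraries only and 2 with the covariate. The cause of these changes was not tested, though fits of only the groups compared or of 1 kit hold fewer animals. Shares of all genes were not counted in these alternatives, so losses across the whole table cannot be told from losses in these genes. Fits of only the groups compared kept the kit term. Where 1 of the groups was Nugen only, the difference rested on the Nugen animals of the other, apart from the sex term. Where limma passed 0 of the 10 genes at q under 0.05 in these alternatives, from 0 (IBA minus LAr, only these groups) to 5 (SA minus SpD, all 31 animals) had an unadjusted p under 0.05. With 1 animal left out at a time the number ranged from 4 to 7 over the states, 0 to 4 in SA minus SpD, 5 to 6 in IBA minus SA, 1 to 1 in Ent minus IBA, 0 to 0 in EAr minus Ent and in LAr minus EAr, 1 to 3 in IBA minus LAr, 1 to 3 in SpD minus IBA and 2 to 6 in hibernation minus active. It was 0 in SA minus SpD without K130 or K140, 1 in IBA minus LAr without K104 or K116, 1 in SpD minus IBA without K1, K3, K6 or K84, and in hibernation minus active 2 without K138, K139, K84 or K9 and 3 without K1, K104, K109, K115, K140, K155, K157, K3, K4, K5 or K6. No paired analysis was possible because each animal was sampled in 1 state only. Depth cannot be weighed, since the values carry no counts.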
